A study of Mus musculus with 9 samples.

Results

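The genes described here build the N-glycan of secreted and membrane proteins in the endoplasmic reticulum (ER), attach it, and trim it. The set holds 34 genes, chosen by symbol from the 24420 gene rows of the deposited tables, and a row was found for all 34. Of these, 33 had enough reads to be tested and 1, Dpm1, did not.

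An N-glycan is assembled on the lipid carrier dolichol, first by enzymes facing the cytosol and then, after the lipid has been flipped, by enzymes facing the ER lumen. The oligosaccharyltransferase complex (OST) moves the finished glycan as a block onto asparagine residues of a protein entering the ER. Glucosidases then trim it, and a folding sensor can add a glucose back so that lectin chaperones bind again. Beta cells pass large amounts of secretory protein through this route, and the processing proteases and receptors they depend on are glycoproteins.

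The study sequenced 9 RNA libraries made from islets of female mice. The 4 knockout (KO) libraries came from mice of genotype Rip-cre; Ogt f/f, in which Cre recombinase is driven by an insulin promoter and therefore acts mainly in beta cells, while the other islet cells keep the floxed gene. The 5 wild-type (WT) libraries carried floxed Ogt with no Cre transgene listed, so no control carries Cre alone. WT replicates 1 and 3 were Ogt f/+, and WT replicates 2, 4 and 5 were Ogt f/f. The islets were held overnight in culture medium before RNA extraction, and neither an age nor a statement that libraries came from separate animals is among the labels used here, so each p-value reflects variation among libraries that could be technical. Run 1 held 3 WT and 2 KO libraries (WT 1 to 3, KO 1 and 2) and run 3 held 2 WT and 2 KO libraries (WT 4 and 5, KO 3 and 4). The labels name this later run as run 3 in the description and as the 2nd run in the characteristics.

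Total counts lay between 3796043 and 6073537 per library, and the 34 genes took 0.287% to 0.399% of them. Ogt, the targeted gene, stood at 54.1 to 83.0 CPM (counts scaled to library size) in the WT libraries and at 23.7 to 39.3 CPM in the KO libraries, with no overlap between the genotypes. The defining beta cell genes were present in every library, with a summed level of 47123 to 109374 CPM over 8 markers in WT and 42346 to 82570 CPM in KO. Of these 8 markers 4 were called lower in KO and 0 higher (median log2 fold change −0.22), and the part of this in the results was not tested. In whole islets, fewer cells of a type and less RNA per cell cannot be told apart. Markers of acinar cells, which also carry much ER, summed to 2613 to 6516 CPM in the WT and 490 to 2264 CPM in the KO libraries of run 1. In run 3 they summed to 158 and 159 CPM in WT and to 108 and 269 CPM in KO, so within that run the genotypes overlapped. Of the 16 acinar markers, Amy2a5, Rbpjl and Ptf1a were at 0 in some libraries.

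In KO islets 8 of the 33 tested genes fell, 0 rose and 25 were not called. A call is an adjusted p under 0.05 (Benjamini-Hochberg, over 12501 genes) in edgeR's quasi-likelihood test with run as a term. Among all tested genes 8.96% were called lower and 9.56% higher. Without the filter on low counts 10 of the 34 genes were called lower and 1 higher. In the main edgeR test 12 of the 33 tested genes had an unadjusted p under 0.05. So did 4027 of all 12501 tested genes, a share near that of the members. The median log2 fold change (KO minus WT) was −0.12 over the 33 genes and 0.02 over all tested genes. Fitted differences were negative for 24 of the 33, against 48.0% of all tested genes, and were negative in both runs taken alone for 18, against 33.9%. In 9 of the 33, every KO library lay below every WT library within each run, against 11.0% of all tested genes. The opposite order held for 1 of the 33, against 11.9%. By stage, 5 of the 9 OST genes fell, as did 2 of 6 genes of the cytosolic steps and 1 of 6 of the lumenal steps, and 0 of 6 trimming and folding-check genes were called. Whether the stages differ was not tested, and the OST genes had 132 to 3215 reads per library where those of the cytosolic and lumenal steps had 9 to 793.

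**Figure D1:**
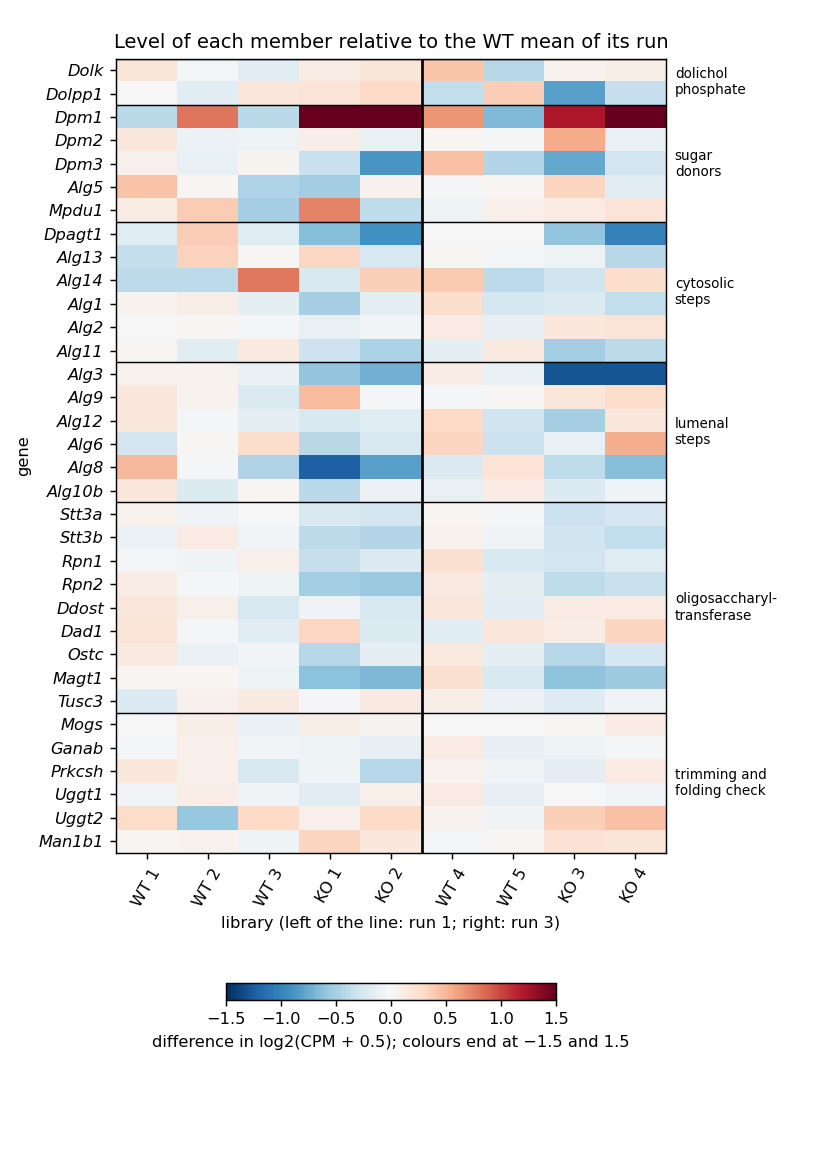
Each row is a gene in pathway order and each column a library; the colour is log2(CPM + 0.5) minus the mean of the WT libraries of the same run, blue for lower and red for higher. Blue KO columns stand out for Dpagt1, Alg3, Alg8, Rpn2 and Magt1, most trimming genes are pale, with Uggt2 blue in WT 2, and Dpm1 is red in the KO columns.

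The OST complex exists in a pair of forms in mammals, each built around its own catalytic subunit. The STT3A form docks at the translocon and glycosylates proteins as they enter, and the STT3B form, which carries a thioredoxin-like subunit (MAGT1 or TUSC3), reaches sites that were skipped. Ribophorins I and II (Rpn1, Rpn2), Ddost and Dad1 belong to both. The promoters of the called OST genes are shown because these genes moved together. They come from RefSeq (GRCm38.p6), which had an entry for 29 of the 34 genes; Alg2, Alg11, Dpagt1, Ostc and Tusc3 had none. Each line gives bases upstream of the annotated start, on the gene's strand and 5′ to 3′, restricted to bases that hold no annotated exon. Capitals mark CCAAT and CCACG, the fixed letters of the ER stress element, on either strand.
Stt3a: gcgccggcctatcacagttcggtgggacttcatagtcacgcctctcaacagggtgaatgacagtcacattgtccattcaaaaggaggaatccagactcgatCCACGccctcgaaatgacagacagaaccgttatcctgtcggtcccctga
Stt3b: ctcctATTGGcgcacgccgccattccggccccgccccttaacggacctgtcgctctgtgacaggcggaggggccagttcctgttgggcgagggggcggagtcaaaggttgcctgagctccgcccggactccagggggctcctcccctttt
Rpn2: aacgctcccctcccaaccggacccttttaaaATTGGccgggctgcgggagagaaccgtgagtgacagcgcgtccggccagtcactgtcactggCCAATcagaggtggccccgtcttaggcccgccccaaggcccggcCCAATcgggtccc
Magt1: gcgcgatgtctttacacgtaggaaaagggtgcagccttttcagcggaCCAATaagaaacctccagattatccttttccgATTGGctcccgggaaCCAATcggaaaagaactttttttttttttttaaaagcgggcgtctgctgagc
The windows lie at chr9:36767680-36767829 (minus strand), chr9:115310469-115310618 (minus strand), chr2:157278867-157279016 (plus strand) and chrX:106011907-106012052 (minus strand). Rpn2 and Magt1 each held CCAAT 3 times, counting both strands, in these windows and Stt3b held it 1 time, while the Stt3a window held 1 CCACG. These stretches are parts of longer promoter windows. In the full windows, from 250 bases before to 50 after the start, Stt3a also held CCAAT and Stt3b also held CCACG.

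Over the full promoter windows, CCAAT on either strand was found in 16 of 30 member promoters (53.3%; Rpn2 has 2 entries) and in 37.4% of all 32851 promoters. CCACG was found in 14 of 30 (46.7%) and in 32.8% of all. The complete ER stress element, which is CCAAT and CCACG separated by 9 bases of any kind and so contains both shorter words, was found in 0.119% of all promoters and in 1 member promoter, that of Alg12, a gene that was not called.
Alg12: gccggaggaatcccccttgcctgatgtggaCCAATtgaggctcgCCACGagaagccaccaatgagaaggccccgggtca
In this line capitals mark only the fixed letters of the complete element, and a further ccaat downstream of it is left in lower case. The stretch lies at chr15:88819490-88819568 on the minus strand. Searched on both strands, the ER stress element II (ATTGG and CCACG separated by 1 base) was in 0.0365% of all promoters, the unfolded protein response element TGACGTGG in 0.676% and the C/EBP-ATF element TTGCATCA in 0.895%, and each was in 0 of the 30. These are matches of letters only, in a window from 250 bases before to 50 after the start.

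Magt1, the oxidoreductase subunit of the STT3B form, had the lowest p-value of the set. It stood at 249, 248 and 233 CPM in WT and at 159 and 153 CPM in KO of run 1, and at 279 and 203 CPM in WT and 156 and 164 CPM in KO of run 3. All 4 KO libraries lay below all 5 WT libraries, and the KO libraries were close to each other (157.9 ± 4.76 CPM, SD, n = 4) beside a wider spread in WT (242 ± 27.6 CPM, SD, n = 5). Magt1 fell by 0.62 on the log2 scale (SE 0.09, edgeR adjusted p = 0.000256), with values of −0.64 within run 1 and −0.59 within run 3, and it was called in all 25 alternative analyses. It lies on chromosome X from 105968084 to 106011906 (minus strand, GRCm38), 4.28 Mb from Ogt (101640060 to 101684351, plus strand).

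Tusc3, the alternative subunit at the same position of the complex, was not called. Its levels were 51.3, 61.9 and 65.1 CPM in WT and 58.2 and 64.8 CPM in KO of run 1, and 83.6 and 73.8 CPM in WT and 68.8 and 75.6 CPM in KO of run 3. The genotypes overlapped in both runs, and the log2 fold change was −0.03 with a 95% interval of −0.24 to 0.17. Per transcript length, on the authors' FPKM scale, the ratio of Magt1 to Tusc3 was 0.738 to 1.14 in the WT libraries and 0.546 to 0.612 in the KO libraries, without overlap. The log2 ratio of their CPM values was lower in KO by an average of −0.57 over the runs. An exact two-sided permutation test of library labels within runs gave p = 0.0167, the smallest that 60 arrangements can give, and p = 0.0668 adjusted over the 4 gene pairs compared. The 4 pairs were chosen after values were seen, and the adjustment does not account for that choice.

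The catalytic subunits fell together. Stt3b stood at 183, 212 and 189 CPM in WT and 148 and 143 CPM in KO of run 1, and at 163 and 151 CPM in WT and 127 and 121.5 CPM in KO of run 3. Every KO library was below every WT library, including those of the other run. Stt3b fell by 0.38 on the log2 scale (SE 0.08, edgeR adjusted p = 0.00274). Stt3a, the more abundant of the pair, stood at 352, 329 and 340 CPM in WT and 289 and 280 CPM in KO of run 1, and at 312 and 297 CPM in WT and 242 and 255 CPM in KO of run 3. Here too the lowest WT library was above the highest KO library, and Stt3a fell by 0.27 on the log2 scale (SE 0.07, edgeR adjusted p = 0.0117). With the f/f controls alone the call of Stt3a was lost (−0.26, adjusted p = 0.0517), while that of Stt3b was kept. The FPKM ratio of Stt3a to Stt3b was 2.46 to 3.00 in WT and 2.81 to 3.16 in KO. The log2 CPM ratio of the pair differed by 0.10 between genotypes (exact permutation p = 0.183, adjusted p = 0.183), with overlapping libraries.

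Of the ribophorins, Rpn2 was called and Rpn1 stood just outside the threshold. Rpn2 stood at 477, 432 and 421 CPM in WT and 311 and 302 CPM in KO of run 1, and at 365 and 301.1 CPM in WT and 254 and 263 CPM in KO of run 3. The genotypes were apart within each run and met across runs, where the lowest WT library (WT replicate 5) lay below both KO libraries of run 1. Rpn2 fell by 0.46 on the log2 scale (SE 0.08, edgeR adjusted p = 0.00126). Rpn1 stood at 528, 512 and 561 CPM in WT and 420.01 and 461 CPM in KO of run 1, and at 484 and 353 CPM in WT and 338 and 365 CPM in KO of run 3. In run 3 WT replicate 5 lay below KO replicate 4, and the log2 fold change was −0.27 (SE 0.09, edgeR adjusted p = 0.0518). Rpn1 was called in 7 of 25 alternatives, among them the one without WT replicate 5 (−0.36, adjusted p = 0.0106) and DESeq2 (adjusted p = 0.0237). The log2 ratio of Rpn2 to Rpn1 differed by −0.19 between genotypes (exact permutation p = 0.05, adjusted p = 0.10 over the 4 pairs).

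Ostc, a small subunit of the STT3A form, stood at 142, 120.5 and 125 CPM in WT and 95.5 and 117 CPM in KO of run 1, and at 164 and 134 CPM in WT and 110 and 124 CPM in KO of run 3. The genotypes were apart within each run by a narrow margin in run 1 (117 against 120.5 CPM). Ostc fell by 0.32 on the log2 scale (SE 0.09, edgeR adjusted p = 0.0267), and this call was lost in 11 of 25 alternatives, among them those without WT replicate 1 (−0.29), WT replicate 4 (−0.25), KO replicate 1 (−0.27) or KO replicate 3 (−0.28), with adjusted p-values up to 0.0974. Ddost, the OST48 subunit, and Dad1, a small membrane subunit, were not called. Their log2 fold changes were −0.03 (95% interval −0.24 to 0.19) and 0.14 (−0.14 to 0.41). Ddost had −0.15 within run 1 and 0.11 within run 3, and Dad1 had 0.07 and 0.22.

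**Figure D2:**
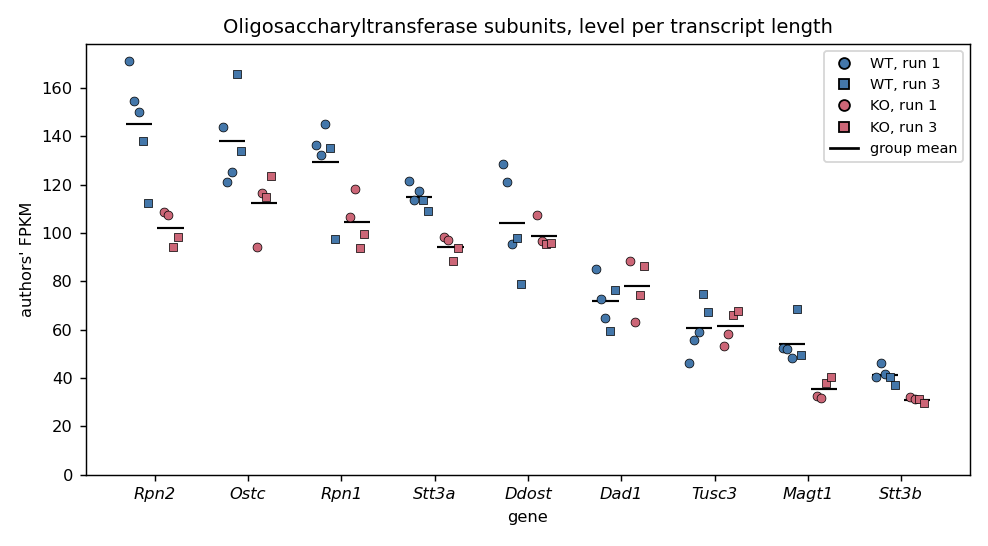
The vertical axis gives the authors' FPKM, a level per transcript length, for each library of the 9 OST genes, in order of the WT mean; circles are run 1, squares run 3, blue WT, red KO, and lines are group means. Rpn2, Stt3a, Magt1 and Stt3b show no overlap between genotypes in FPKM over both runs, while Ostc, Rpn1, Ddost, Dad1 and Tusc3 overlap.

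Per transcript length the OST genes did not stand at equal levels. Mean FPKM in WT was 145 ± 21.9 for Rpn2, 138 ± 17.8 for Ostc, 129 ± 18.3 for Rpn1, 115.02 ± 4.78 for Stt3a and 104 ± 20.2 for Ddost (SD, n = 5), and neighbours in this order overlapped. Below these came Dad1 at 71.8 ± 10.0, Tusc3 at 60.6 ± 11.0, Magt1 at 54.3 ± 8.27 and Stt3b at 41.2 ± 3.22, where every neighbour but the last pair overlapped. These means pool the runs, and the order was not the same in each: in WT of run 3 Ostc was at 166 and 134 FPKM and Rpn2 at 138 and 112 FPKM. In KO the means of Tusc3 (61.4 ± 6.85, SD, n = 4) and Magt1 (35.6 ± 4.13) no longer lay within each other's SD. Summed over the 9 genes, OST RNA was 2182 to 2309 CPM in WT and 1770 to 1773 CPM in KO of run 1, and 1721 and 2096 CPM in WT and 1540 and 1619 CPM in KO of run 3. The genotypes were apart within each run, and WT replicate 5 (1721 CPM) was lower than both KO libraries of run 1.

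Enzymes of the first and last sugars added on the cytosolic side fell, and those between them were not called. Dpagt1, which commits the pathway by placing the first sugar on dolichol phosphate and is the target of tunicamycin, stood at 13.9, 20.7 and 13.9 CPM in WT and 10.1 and 8.28 CPM in KO of run 1, and at 16.4 and 16.6 CPM in WT and 10.8 and 7.92 CPM in KO of run 3. All WT libraries were above all KO libraries, and Dpagt1 fell by 0.81 on the log2 scale (SE 0.19, edgeR adjusted p = 0.00704). Alg11, which adds the last mannoses before the lipid is flipped, stood at 47.4, 41.1 and 50.7 CPM in WT and 37.04 and 33.1 CPM in KO of run 1, and at 33.6 and 40.4 CPM in WT and 25.8 and 28.03 CPM in KO of run 3. The genotypes were apart within each run, and Alg11 fell by 0.43 on the log2 scale (SE 0.11, edgeR adjusted p = 0.0126). Its call was lost in 8 of 25 alternatives, among them the f/f controls alone (−0.38, adjusted p = 0.0865) and a fit that added the mean acinar marker level (−0.41, adjusted p = 0.0566). Between these steps, Alg13 and Alg14, which together add the next sugar, had log2 fold changes of −0.12 (95% interval −0.74 to 0.49) and −0.04 (−0.73 to 0.64), so only large changes of these scarce transcripts could be detected at this depth. Alg1, the first mannosyltransferase, had −0.33 (adjusted p = 0.222) and Alg2, which adds the following mannoses, had 0.04 (95% interval −0.14 to 0.21).

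On the lumenal side Alg3, which adds the first mannose there, fell by the largest amount of the 33 tested genes. It stood at 13.7, 13.6 and 12.2 CPM in WT and 8.57 and 7.79 CPM in KO of run 1, and at 11.0 and 9.29 CPM in WT and 3.82 and 3.82 CPM in KO of run 3. No KO library reached the lowest WT library, and the KO libraries of run 3 were the lowest of all. Alg3 fell by 1.01 on the log2 scale (SE 0.22, edgeR adjusted p = 0.00443), by −0.68 within run 1 and −1.41 within run 3. These within-run values were not called different (interaction −0.72, adjusted p = 0.865). Its exons overlap those of Vwa5b2, Eef1akmt4 and Gm49333 on the other strand, and whether the counting used strand is not stated. Eef1akmt4 and Gm49333 have no row under these symbols in the counts, so their levels are not known. Vwa5b2 stood at 46.9 CPM in WT and 40.04 CPM in KO with a log2 fold change of −0.25 (adjusted p = 0.286).

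The glucosyltransferase Alg8, which adds the second glucose, was not called. It stood at 8.55, 5.83 and 4.23 CPM in WT and 2.27 and 3.16 CPM in KO of run 1, and at 8.13 and 11.0 CPM in WT and 7.14 and 5.87 CPM in KO of run 3. The genotypes were apart within each run only, since both KO libraries of run 3 lay above WT replicates 2 and 3, and the log2 fold change was −0.82 (SE 0.28, edgeR adjusted p = 0.0565). As few as 9 reads stood behind a library, and Alg8 was called in 5 of 25 alternatives. The other glucosyltransferases, Alg6 for the first and Alg10b for the last glucose, had log2 fold changes of −0.07 (95% interval −0.60 to 0.46) and −0.19 (−0.44 to 0.05). The mannosyltransferases Alg9 and Alg12 had 0.23 and −0.19, and neither was called (adjusted p = 0.324 and 0.519). Exons of Alg9 overlap those of 1110032A03Rik on the other strand, which rose (log2 fold change 0.49, adjusted p = 0.0146).

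**Figure D3:**
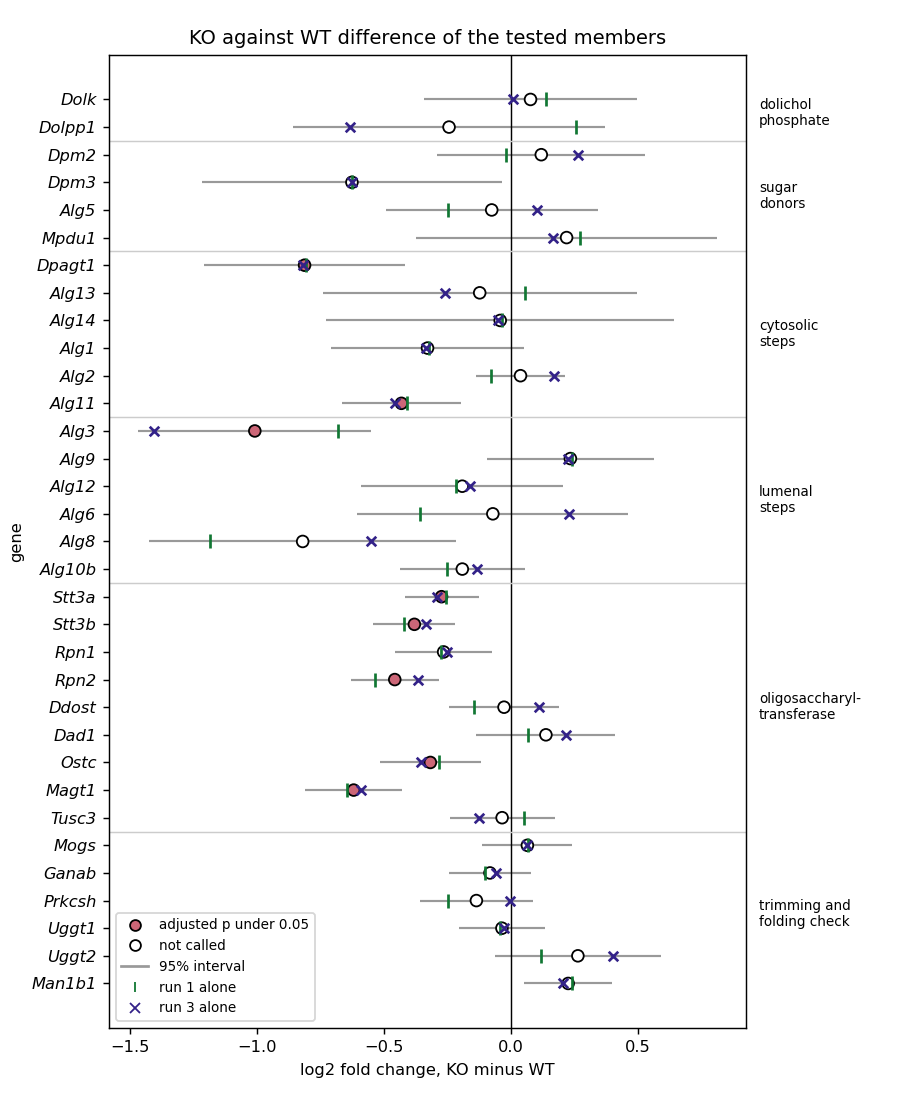
The horizontal axis gives the log2 fold change (KO minus WT) of the 33 tested genes in pathway order; circles are the fit over both runs with 95% intervals, filled where the adjusted p was under 0.05, ticks are run 1 and crosses run 3. The 8 filled circles all lie left of 0, from −1.01 (Alg3) to −0.27 (Stt3a).

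The supply of dolichol phosphate and of its sugar-loaded forms gave 0 calls among 6 tested genes, and 1 of these had an unadjusted p under 0.05 in edgeR's test. Dolk, the dolichol kinase, and Dolpp1, which recycles the carrier after transfer, had log2 fold changes of 0.08 and −0.24. Alg5, which makes dolichol phosphate glucose, had −0.08, and Mpdu1, needed for use of the loaded carriers, had 0.22. Dolichol phosphate mannose synthase has a catalytic subunit, Dpm1, and the membrane subunits Dpm2 and Dpm3. Dpm3 stood at 8.79, 7.77 and 8.70 CPM in WT and 6.55 and 4.38 CPM in KO of run 1, and at 7.53 and 3.89 CPM in WT and 2.99 and 4.40 CPM in KO of run 3. WT replicate 5 lay below KO replicate 4, and the log2 fold change was −0.63 (adjusted p = 0.132). Dpm2 had 0.12 with a 95% interval of −0.29 to 0.53.

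Dpm1 was the gene that the filter on low counts removed, and its reads ran the other way. It had 0, 2, 0, 5 and 0 reads in WT replicates 1 to 5 and 8, 9, 8 and 20 reads in KO replicates 1 to 4, or 7 reads in all in WT and 45 in KO. In CPM this was 0.28 ± 0.39 (SD, n = 5) against 2.12 ± 0.66 (SD, n = 4), and every KO library was above every WT library. A count of 0 allows up to 3 reads, or 0.733, 0.746 and 0.507 CPM in WT replicates 1, 3 and 5, levels below the lowest KO library at 1.33 CPM (counting error only). The log2 CPM difference, averaged over runs, was 2.00 (exact permutation p = 0.0333). Without the filter, edgeR gave a log2 fold change of 2.77, a value that depends on the prior count (adjusted p = 0.00222). On log2(FPKM + 0.1) it was 2.63, called by limma with a filter on mean FPKM (adjusted p = 0.02) and not without it (adjusted p = 0.101). Dpm1 passed that filter only through its KO libraries, as its WT mean was under the cut-off, so the filtered call adds no support. All of its levels were far under those of Dpm2 per transcript length (0.42 against 13.5 FPKM in WT and 2.32 against 14.5 FPKM in KO), although both encode subunits of 1 enzyme. Its annotated exons overlap those of Gm20716 on the same strand, so the reads of Dpm1 are uncertain.

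**Figure D4:**
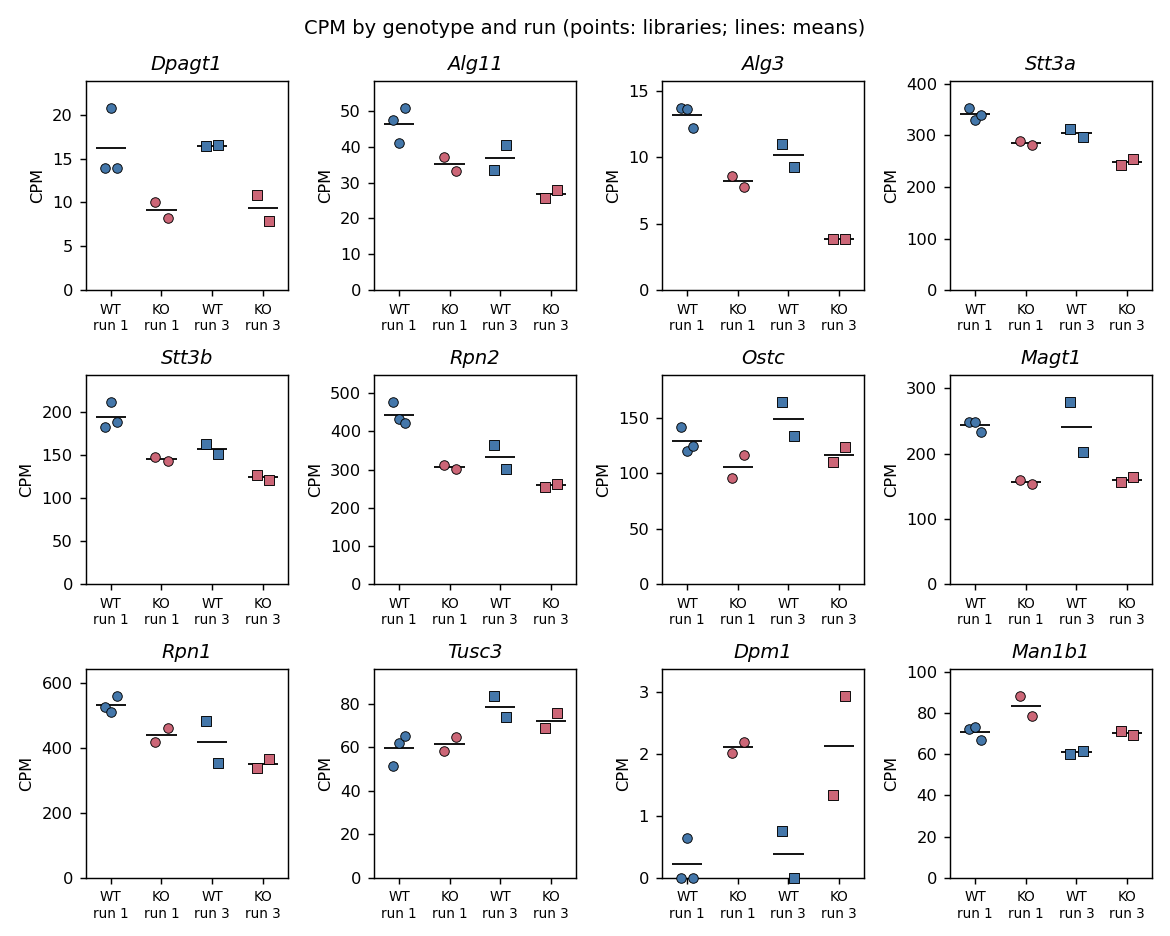
Each panel gives CPM by genotype and run for the 8 called genes and for Rpn1, Tusc3, Dpm1 and Man1b1; points are libraries and lines are means, with each axis starting at 0. The called genes show red points below blue points of the same run, Tusc3 overlaps, and Dpm1 and Man1b1 show red points above.

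Trimming and the folding check gave 0 calls in edgeR's test, with 1 of 6 genes at an unadjusted p under 0.05. Glucosidase I (Mogs) had a log2 fold change of 0.06 with a 95% interval of −0.11 to 0.24, and the catalytic chain of glucosidase II (Ganab) had −0.08 (−0.24 to 0.08). The intervals therefore leave out falls as large as those fitted for Rpn2 or Magt1. Prkcsh, the other chain of glucosidase II, had −0.14 (−0.36 to 0.09), with −0.25 in run 1 and −0.0048 in run 3. Prkcsh was also the gene of this group whose level differed most between the runs, at −0.64 for run 3 against run 1 (adjusted p = 0.000292).

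Uggt1, the sensor that puts a glucose back on unfolded glycoproteins, was at 474 to 675 CPM in WT and 500.4 to 665 CPM in KO, with a log2 fold change of −0.04 (−0.21 to 0.13). Its less abundant relative Uggt2 had 0.26 (−0.06 to 0.59), and with the f/f controls alone it was called higher (0.51, adjusted p = 0.0343). WT replicate 2, one of those controls, was at 14.6 CPM and the other WT libraries at 26.6 to 30.9 CPM. The log2 ratio of Uggt2 to Uggt1 differed by 0.32 between genotypes, with an exact permutation p = 0.183 (adjusted p = 0.183). Man1b1, a mannosidase that starts the removal of misfolded glycoproteins, stood at 72.3, 73.2 and 66.9 CPM in WT and 88.4 and 78.9 CPM in KO of run 1, and at 60.4 and 61.7 CPM in WT and 71.3 and 69.6 CPM in KO of run 3. It was the 1 tested member with every KO library above every WT library within each run. Its log2 fold change was 0.23 (SE 0.08), and it was not called (edgeR adjusted p = 0.0647).

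**Figure D5:**
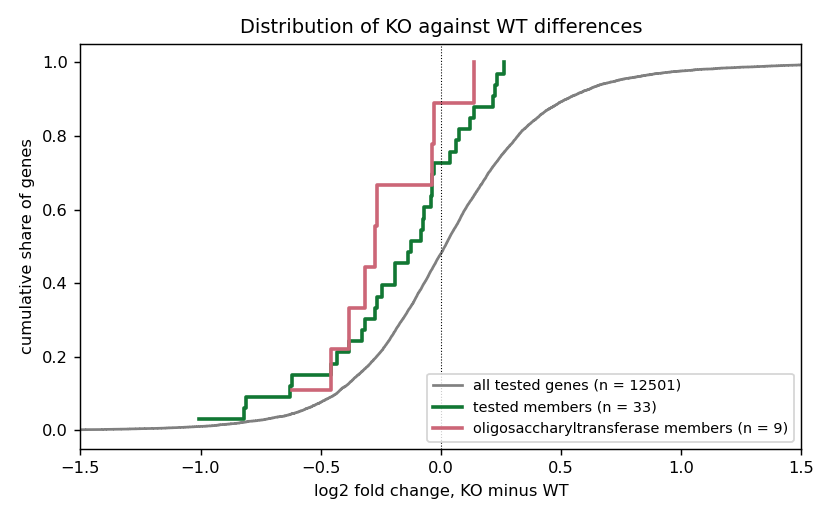
The curves give the share of genes with a log2 fold change (KO minus WT) at or below the value on the horizontal axis, for all 12501 tested genes, the 33 tested members and the 9 OST genes. Over most of its length the member curve lies left of the curve of all genes, with medians of −0.12 and 0.02, and the OST curve has a median of −0.27.

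The genes that feed, extend and follow this pathway were grouped in 8 further lists, whose counts stand beside the 8.96% called lower and 9.56% called higher among all tested genes. Of 3 other small OST subunits, 1 fell: Krtcap2, which belongs to the STT3A form, had a log2 fold change of −0.50 (adjusted p = 0.00772). Ost4, named after its values were seen, had 0.42 (adjusted p = 0.051), with every KO library above every WT library. Among 4 genes of dolichol synthesis and flipping 0 were called with 2 at an unadjusted p under 0.05, and the lowest p was that of the polyprenol reductase Srd5a3 (−0.44, adjusted p = 0.0806). Of 11 genes of nucleotide sugar and mannose supply 2 fell and 0 rose, and they were Gmppb, a subunit of the GDP-mannose-making enzyme (−0.53, adjusted p = 0.0222), and Gnpnat1, an acetyltransferase of the hexosamine route (−0.58, adjusted p = 0.0365). Of 7 tested genes of other routes that use dolichol phosphate mannose, 0 were called and 0 had an unadjusted p under 0.05. The lowest p there was that of Tmtc3 (0.15, adjusted p = 0.218).

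Downstream of OST, in a list of 6 calnexin cycle and cargo receptor genes, 4 fell and 0 rose. Among those that fell were the lectin chaperones Canx (−0.39, edgeR adjusted p = 0.00371) and Calr (−0.57, edgeR adjusted p = 0.00858). The cargo receptor Lman1, which is not part of the calnexin cycle itself, also fell (−0.48, edgeR adjusted p = 0.000829) and counts among the 4. Of 6 genes of glycoprotein degradation, mostly mannosidases and lectins, 1 fell, Edem1 (−1.19, adjusted p = 6.06e-06). In the Golgi 2 of 17 processing enzymes fell and 2 rose, shares near those among all tested genes. The sialyltransferase St3gal3 (−0.80, adjusted p = 0.000767) and the mannosidase Man1a (−0.42, adjusted p = 0.0229) fell, and the mannosidase Man2a1 (0.39, adjusted p = 0.012) and the branching enzyme Mgat5 (0.40, adjusted p = 0.0351, named after its value was seen) rose. The median log2 fold change of the Golgi list was 0.14, against −0.37 for the list of calnexin cycle and cargo receptor genes. Of 8 sensors and transcription factors of the unfolded protein response, which controls many ER genes, 5 fell and 0 rose, led by Atf4 (−0.73), Eif2ak3 (−0.58) and Creb3l1 (−0.55), with adjusted p-values of at most 0.0016.

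The runs and the control genotypes were examined for the same 33 genes. Between runs, 16 of the 33 differed (31.4% of all tested genes did), 6 higher and 10 lower in run 3, so means and ranges given over both runs include that difference. Within run 1 alone 2 of the 33 genes, Magt1 and Rpn2, were called lower (2.76% of all tested genes), and within run 3 alone these and Stt3b and Alg3 were (4.22%). For the interaction of genotype and run, edgeR called 0 of the 33 genes and 0 of all tested genes. An unadjusted p under 0.05 was found there for 0 of the 33 and for 744 of all 12501 tested genes. Between f/+ and f/f controls 0 of the 33 and 0 of all tested genes were called. Here 1 of the 33 and 398 of all 12501 tested genes had an unadjusted p under 0.05 in edgeR's test. Both f/+ libraries were in run 1, where WT replicate 2 was the only f/f control. This comparison therefore leaned on few libraries and does not show that the control genotypes are alike. With the mean acinar marker level added to the model 7 of the 33 genes were called lower. The share of all tested genes called lower in that fit is not given here, so this count has no background beside it. Of 13 tested acinar markers 3 were called lower in KO and 0 higher. Their median log2 fold change was −1.13, with −1.80 within run 1 and 0.18 within run 3. The OST genes had medians of −0.28 within run 1 and −0.29 within run 3. The part of acinar content in these differences was not tested. Summed fibroblast and stellate markers were 85.5 to 209 CPM in WT and 302 and 179.9 CPM in KO of run 1. In run 3 they were 483 and 690.2 CPM in WT and 839 and 768 CPM in KO, so the genotypes were apart in that run only. Of these 5 markers 1 was called higher in KO and 0 lower. Summed alpha cell markers were 20930 to 38651 CPM in WT and 23946 to 64242 CPM in KO, with 1 of 5 markers called higher. Summed delta and PP cell markers were 2936 to 3917 CPM in WT and 4990 and 5167 CPM in KO of run 1, and 2856 and 2931 CPM in WT and 4542 and 3698 CPM in KO of run 3. These were higher in KO within each run, with 1 of the 4 markers called higher, and the part of these 3 marker groups in the results was not tested.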

How the data were processed

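Islet RNA was made into stranded total RNA libraries and sequenced, per the labels' protocols. The authors deposited whole-number read counts per gene symbol and a table of FPKM values, with 1 column per library. Per the submitters' processing notes, edgeR, Cuffdiff 2.2.1, FastQC and Bowtie2 2.2.4.0 are listed without roles, beside the genome build mm10. The counting program, its annotation and its strand setting are not stated, so genes with overlapping exons (11 of the 34) are uncertain. The deposited FPKM values were used for levels per length and as an alternative measure; their scaling between libraries is not stated.

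Of the 24420 count rows, 27 with symbols turned into dates (0.133% to 0.186% of counts) were left out. Counts were tested with edgeR 4.0.16 (R 4.3.3), TMM normalization, the default filter by genotype and a model of run and genotype, with Benjamini-Hochberg adjustment over the 12501 genes tested. Standard errors and 95% intervals came from the fold change and its F statistic, and the code was tested on simulated data. CPM uses TMM-scaled library sizes. Permutation tests exchanged labels within runs (60 arrangements) on log2 CPM with a prior count of 2, and the 4 gene pairs were added after values were seen. Every pair of libraries of a group differed beyond sampling noise (chi-square per degree of freedom 3.35 to 45.4), so none was merged. Positions and exon overlaps are from GENCODE M21 (GRCm38). The genes, lists and motifs were chosen with earlier results of these data known; the searches for CCAAT and CCACG alone were added later. Within-run fits kept the normalization of all 9 libraries. Named genes are all 34 members, Ogt, and from each further list up to 3 called genes with the lowest p, or 1 where none was called. Alternatives were DESeq2 1.42.0, limma 3.58.1 (voom, and on log2 FPKM with pseudocounts of 0.1 and 1), other scaling, filters, covariates and controls, single runs, and each library left out.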

Additional observations from a re-analysis of the deposited data

Results flagged for a closer look

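In 3 of the 68 groups of libraries examined (34 genes in 2 genotypes), 1 library stood apart from the others of its group by Dixon's criterion, which chance alone meets in about 1 of 20 groups. Dpm3, a membrane subunit of dolichol phosphate mannose synthase, was at 3.89 CPM in WT replicate 5, with the next WT library at 7.53 CPM. Alg12, a lumenal mannosyltransferase, was at 9.30 CPM in KO replicate 3, with the next KO library at 14.6 CPM. Uggt2, a relative of the folding sensor, was at 14.6 CPM in WT replicate 2, with the next WT library at 26.6 CPM. None of the 3 genes was called with all libraries, and none was called with that library left out.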

How the results depend on the processing

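Over 25 alternatives the number of the 34 genes called lower in KO was between 2 and 10, against 8. It was 2 without the run term and 2 within run 1 alone, 4 within run 3 alone, and 5 with only the f/f controls; fewer libraries enter the last 3. With single libraries left out it was 7 to 9. Among all tested genes 8.96% were called lower in the main fit, 2.76% within run 1 alone and 4.22% within run 3 alone. For the other alternatives that share is not given here. Their counts therefore do not show whether the members moved apart from all tested genes. The number called higher, 0, was 1 without a filter on low counts, with at least 1 CPM in at least 4 libraries, and on filtered FPKM values with pseudocounts of 0.1 or 1 (Dpm1 in each), on unfiltered FPKM values (1, Man1b1) and with the f/f controls alone (1, Uggt2); it was 0 to 0 with single libraries left out. Dpm1 passed the 1 CPM filter and the FPKM filter only through its KO libraries, where it was higher, so its calls under these filters add no support. The median log2 fold change, −0.12, was −0.22 within run 1 alone and −0.212 to −0.0786 with single libraries left out. Without WT replicates 2 and 5, which had the highest share of ribosomal RNA precursor in their runs, 9 genes were called lower, and without WT replicate 2 and KO replicate 2, the extremes of acinar markers within run 1, 8 were; both were chosen after seeing the data. None of the 8 called genes changed sign in the alternatives run. Of the 25 tested genes not called, 12 changed sign in at least 1 alternative. The labels give no replicate numbers, so those printed here only name libraries. No paired analysis was possible because no label used here links a WT library to a KO library. Depth limits the scarce transcripts: for 7 of the 33 tested genes (Dolpp1, Dpm3, Mpdu1, Alg13, Alg14, Alg6 and Alg8) the 95% interval was over 1 log2 unit wide.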
